A study of Homo sapiens with 12 samples.

Results

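The comparison described here is that of KO#2 with KO#10, a pair of *c-JUN*-edited clones made with CRISPR-Cas9 from H1, an established human embryonic stem cell line. Its members were the 4 RNA-seq libraries labelled KO#2 and the 4 labelled KO#10, that is 8 of the 12 libraries in the series, and the other 4 were those of unedited H1 (WT). All lines were induced in the same way to form cerebral organoids (COs), which are floating neural tissues grown from embryoid bodies, and were collected on days 12 and 24. RNA from 3 to 4 pooled COs made 1 library, and each line had replicates 1 and 2 on each day. Each line is a single clone or parent line, so a difference between KO#2 and KO#10 cannot be told apart from a difference between any other cell clones of H1.

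The libraries were paired by day and replicate number into 4 pairs, and every difference below is KO#2 minus KO#10 on the scale of log2 (value + 1). The values are normalized whole-number scores per gene, of which 9436 of the 10976 listed genes reached 10 in at least 2 of the 8 libraries and were tested. Because 1 is added to each value, a fold given for a low gene is smaller than that of the values themselves. Near the top of the scale the values repeat in wide steps, such as 903, 1204, 3047 and 5585, so a fold there is coarse. What a replicate number stands for is not given in the sources used here. The *p*-values therefore measure only the spread between these pooled libraries.

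Clones of 1 stem cell line carry the same intended edit but can differ in off-target edits, in parts of chromosomes gained or lost in culture, in imprinting, and in how readily they take a given fate. The edited gene encodes c-JUN, a subunit of the AP-1 transcription factor. COs at these ages hold neural progenitors and early neurons of the forebrain, and may also hold cells of other origin, since patterning is left largely to the tissue itself. The ventral forebrain factors *GSX2* and *DLX1*, and genes of connective tissue, liver-like endoderm or choroid plexus are the usual means of telling such cells apart.

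The 8 libraries carried the transcripts of neural tissue. *PAX6*, a transcription factor of neural progenitors, had values from 73 to 112, and *SOX2*, a neural stem cell factor, from 34 to 146. *POU5F1*, which marks pluripotent cells, had values from 3 to 19, against 75 to 236 in WT. The normalization gave all 12 libraries the same median of 17 and the same highest value of 5585, so that they hold no read depth from which counting error could be worked out. Within a clone, the replicates of day 12 lay 45 units apart in KO#2 and 45 in KO#10 (Euclidean distance over the log2 values). The clones lay only 32.3 apart with replicate number 1 and 27.2 with number 2, so that the replicate number separated the libraries of that day more than the clone did.

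At day 24 the distance between the clones was 58.2 in the replicate 1 pair and 27.5 in the replicate 2 pair. In the replicate 1 pair, 440 genes (4.66% of those tested) were at least 2-fold higher in KO#2 and 361 (3.83%) at least 2-fold lower. In the replicate 2 pair the counts were 42 (0.445%) and 26 (0.276%). The day 12 pairs had 68 and 85 genes in replicate 1, and 33 and 31 in replicate 2. Of the genes beyond 2-fold in the day 24 replicate 1 pair, 400 of the 440 and 328 of the 361 were within 2-fold, or 2-fold the other way, in all 3 other pairs.

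Each library was next set against the other 3 clone libraries of its day. A library was taken to stand apart in a gene when it lay at least 1 log2 unit from the nearest of the other 3, and those 3 lay within 1 unit of each other. KO#10 day 24 replicate 1 stood above the others in 128 genes (1.36%) and below them in 163 (1.73%). KO#2 day 24 replicate 1, its partner in the pair, stood apart in 91 genes in either direction. The day 24 replicate 2 libraries stood apart in 6 (KO#2) and 10 (KO#10) genes, and the day 12 libraries in 8 to 30. The mean differences of most named genes are therefore given with and without KO#10 day 24 replicate 1. Several list medians are given pair by pair, and the genes carried by that library are described apart.

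**Figure D1:**
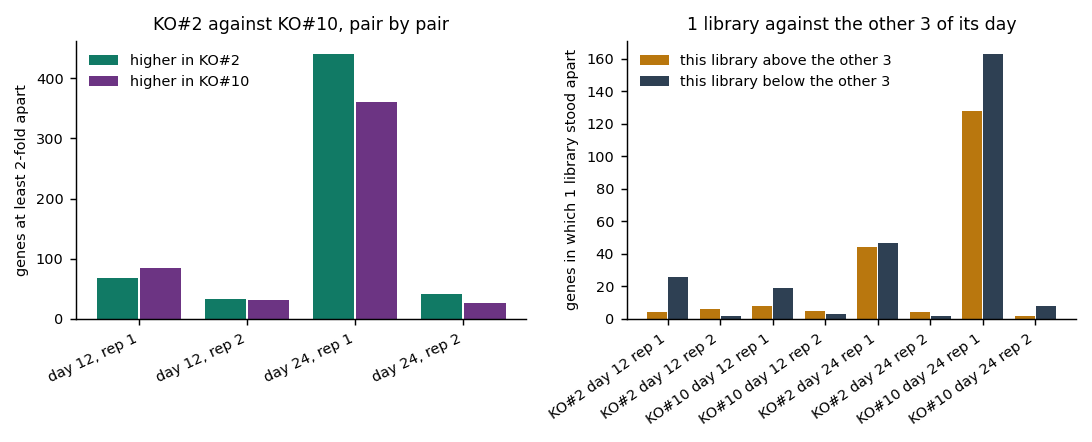
The left panel gives the number of genes at least 2-fold apart between KO#2 and KO#10 in each of the 4 pairs of day and replicate (rep), by direction. The right panel gives, for each of the 8 clone libraries, the number of genes in which it stood above or below the other 3 libraries of its day. The day 24 replicate 1 pair had 440 and 361 genes, and KO#10 day 24 replicate 1 stood apart in the most genes, with 128 above and 163 below.

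*JUN* (ENSG00000177606, chromosome 1, 58776845 to 58784048), which both clones were edited in, was higher in KO#2 than in KO#10 in every pair. Its values at day 12 were 19 and 18 in KO#2 (replicates 1 and 2, the order kept below) against 14 and 13 in KO#10. Those of day 24 were 39 and 39 against 29 and 32. The WT libraries had 4 and 8 at day 12 and 13 and 15 at day 24, so both clones lay above WT and the label KO did not go with a low value of *JUN*. The paper reports that c-JUN protein was absent from the KO lines by western blot. It also reports no *c-JUN* mRNA in KO COs by RT-qPCR, from which the values here differ, and the reason was not tested. These gene-level values hold no information on the edit itself, and KO#2 and KO#10 are used here as the names the libraries were labelled with. The clone difference was 0.39 (95% confidence interval 0.175 to 0.599, limma, adjusted *p* = 0.583), or 1.31-fold, and 0.38 without KO#10 day 24 replicate 1 (adjusted *p* = 0.748).

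Of the 9 genes listed for the AP-1 family, 6 were tested. *JUN* was the 1 gene that was higher in KO#2 in all 4 pairs, and 0 were lower in all 4. The median difference of the 6, *JUN* included, was 0.22 and 0.41 in the day 12 pairs and 0.38 and 0 in the day 24 pairs. *FOS*, a partner of c-JUN in AP-1, was at 25 and 23 in KO#2 against 20 and 14 in KO#10 on the earlier day. On the later day the replicate 1 pair had 47 in KO#2 and 8 in KO#10, and the replicate 2 pair had 1 and 2. *FOSB* was likewise highest in KO#2 at day 24 in replicate 1, with 21 against 0 or 1 in the other 3 libraries of that day. *JUND* had values from 43 to 64 in all 8 libraries.

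No gene passed the test between the clones over both days. With limma on the 4 pairs, 0 genes (0%) had an adjusted *p* under 0.05, the smallest being 0.583, and 767 genes (8.13%) had an unadjusted *p* under 0.05. Of these, 7 were at least 2-fold higher and 7 at least 2-fold lower in KO#2. The fit of day 12 alone, that of day 24 alone, that of the difference between the days and that without KO#10 day 24 replicate 1 also called 0 genes, with 311, 932, 414 and 583 genes at an unadjusted *p* under 0.05. The precision of these libraries sets what could be seen. The 95% confidence interval of the clone difference had a median half-width of 0.303, and for 8930 genes (94.6%) the whole interval lay within 2-fold in either direction.

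Smaller differences that held in all pairs were therefore described by the overlap of the values. In 154 genes (1.63%) both KO#2 libraries lay above both KO#10 libraries on each day, and in 158 (1.67%) they lay below. All 4 pairs had the same sign in 607 genes (6.43%) that were higher and 614 (6.51%) that were lower in KO#2. The shares that random signs would give were not worked out, so no clone difference is read from these counts alone. Over all genes tested, the clone differences of any 2 pairs correlated with *r* from 0.05 to 0.235, with 0.068 between the day 12 pairs. For a clone minus WT, *r* between the replicates of a day was 0.284 to 0.816. With a mean difference of at least 2-fold, 4 genes without overlap were left that were higher in KO#2 and 2 that were lower. The former included *LAMP5* and *PWRN1*, and in each of the 4 the day 24 replicate 1 pair had the largest difference. The latter were *RARG* and *SUCLG2*. In the mean of the 3 other pairs, 7 of the 154 genes and 13 of the 158 differed by at least 1.5-fold.

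Among the genes higher in KO#2, *SYT11* (ENSG00000132718, chromosome 1, 155859567 to 155885199), a synaptotagmin of vesicle traffic, had at least 0.58 in each pair. Its values at day 12 were 35 and 30 in KO#2 and 21 and 17 in KO#10, and at day 24 they were 69 and 56 against 22 and 37. The difference was 0.92 (95% confidence interval 0.496 to 1.347, adjusted *p* = 0.583) and 0.69 without KO#10 day 24 replicate 1. The WT libraries had 28 and 31 at day 12 and 24 and 14 at day 24, so that WT replicate 2 was level with KO#2 at day 12 and both WT libraries were below KO#2 at day 24.

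*AGPAT4*, which encodes an acyltransferase of phospholipid synthesis, was at 54 and 44 in KO#2 against 33 and 31 in KO#10 at day 12, and at 36 and 33 against 16 and 24 at day 24. *TMEM182* was at 186 and 125 against 118 and 100 at day 12, and at 84 and 56 against 36 and 37 at day 24. *ERC2*, a scaffold of the presynaptic active zone, was at 14 and 12 against 10 and 8, and later at 15 and 11 against 7 and 7. In each of these the clones did not overlap on either day, and the mean of the 3 pairs without KO#10 day 24 replicate 1 was 0.54 for *AGPAT4*, 0.52 for *TMEM182* and 0.52 for *ERC2*, against 0.69, 0.69 and 0.64 over all 4. Values under 10 were frequent in *MMP17*, a membrane-anchored metalloproteinase, and *PSD*, and their folds are coarse for that reason.

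For other genes of this direction the day 24 replicate 1 pair held much of the mean. *LAMP5* (ENSG00000125869), a membrane protein of neurons, was at 25 and 19 in KO#2 against 17 and 10 in KO#10 at day 12. On day 24 KO#2 was at 20 and 5, whereas KO#10 was at 2 in replicate 1 and 3 in replicate 2. The clones did not overlap, but the difference of 1.20 over 4 pairs was 0.66 without KO#10 day 24 replicate 1. The library that stood apart in *LAMP5* at day 24 was KO#2 replicate 1, and leaving out its partner drops the whole pair. *NDRG4*, *SORBS2* and *KAT6B*, a histone acetyltransferase, also rested on that pair. They had 0.37, 0.50 and 0.34 in the 3 other pairs against 0.83, 0.83 and 0.65 over all 4. In *NDRG4* and *SORBS2* it was KO#10 replicate 1 that stood apart, below the others. In *KAT6B* the day 24 values were 29 and 18 in KO#2 against 9 and 17 in KO#10.

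Genes lower in KO#2 depended less on 1 pair. *SUCLG2* (ENSG00000172340, chromosome 3, 67360460 to 67654612), a subunit of succinyl-CoA synthetase in the citric acid cycle, was at 9 and 11 in KO#2 at day 12 against 20 and 21 in KO#10. On day 24 the values were 8 and 5 against 21 and 10, so that KO#2 had about the same low level on both days. The difference was −1.03 (95% confidence interval −1.323 to −0.732, adjusted *p* = 0.583), and −0.94 without KO#10 day 24 replicate 1. In WT it was at 17, 22, 23 and 32, on the side of KO#10 on both days.

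*CHCHD2* (ENSG00000106153), which encodes a mitochondrial protein of the intermembrane space, was at 38 and 33 in KO#2 against 48 and 81 in KO#10 at day 12, and at 88 and 85 against 152 and 158 at day 24. *MRPL3* (ENSG00000114686), a protein of the large mitochondrial ribosomal subunit, was at 75 and 96 against 98 and 124 at day 12, and at 120 and 187 against 279 and 452 at day 24. The mean difference was −0.82 for *CHCHD2* and −0.81 for *MRPL3*, and −0.83 and −0.67 without KO#10 day 24 replicate 1. Both genes have processed copies whose reads the authors' counting could have split. *MRPL3* was also at least 2-fold lower in KO#2 in both day 24 pairs.

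Of the 82 nuclear genes of oxidative phosphorylation that were tested, 7 were lower in KO#2 in all 4 pairs and 0 higher, against 6.51% and 6.43% of all genes, and the median difference was −0.10. The pair medians were 0.04 and −0.16 at day 12, and −0.17 and −0.10 at day 24 (replicates 1 and 2). *BTF3*, a subunit of the nascent polypeptide-associated complex, was at 370 and 356 in KO#2 against 508 and 553 in KO#10 at day 12, and at 508 and 668 against 1204 and 903 at day 24. *RARG*, the gamma receptor of retinoic acid, was at 3 and 7 against 10 and 9, and later at 3 and 6 against 19 and 10. *FCGRT*, the neonatal Fc receptor, was at 13 and 12 against 26 and 15, and later at 8 and 9 against 23 and 15. The mean difference was −0.69 for *BTF3*, −1.19 for *RARG* and −0.84 for *FCGRT*, and −0.51, −0.81 and −0.64 without KO#10 day 24 replicate 1. *SLX1A* had −0.76 over all 4 pairs and −0.99 without that library, but it has a near-identical copy, and its reads are uncertain.

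**Figure D2:**
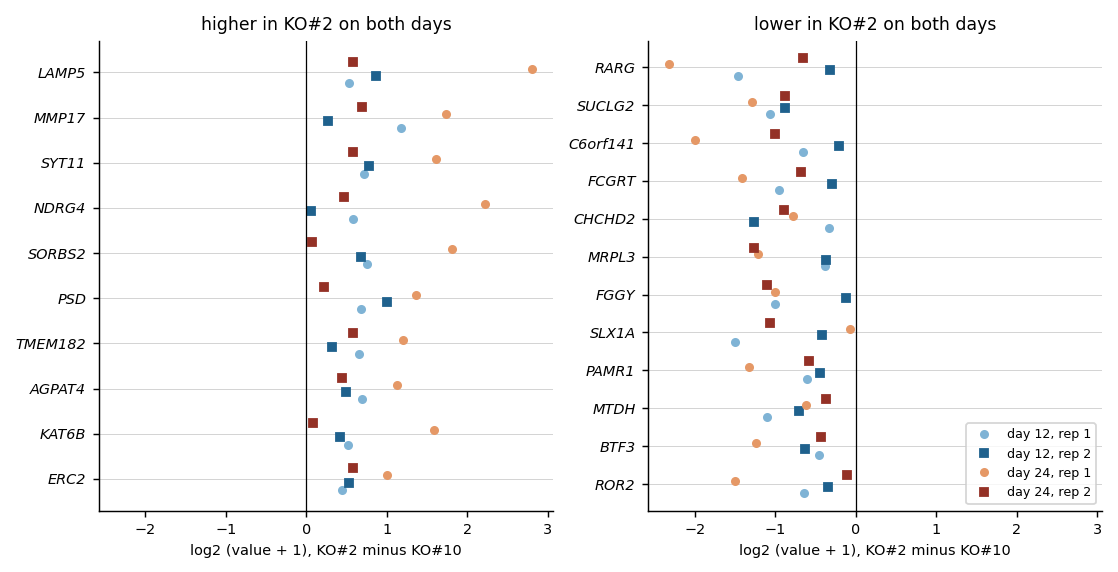
Paired differences (log2 of value + 1, KO#2 minus KO#10) in 10 genes higher and 12 lower in KO#2, from the largest mean differences among genes in which the clones did not overlap on either day. Each point is 1 pair of day and replicate (rep), and all points of a panel lie on 1 side of 0 because the genes were chosen that way. In the left panel the day 24 replicate 1 pair reached 2.81 for *LAMP5*, whereas *SUCLG2* in the right panel stayed between −1.29 and −0.87.

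The WT libraries were not used in choosing these genes. Of the 154 genes higher in KO#2, the WT mean lay nearer to KO#10 than to KO#2 in 114 (74.0%) at day 12 and in 129 (83.8%) at day 24. Of the 158 genes lower in KO#2, it did so in 104 (65.8%) and in 124 (78.5%). Over all genes whose clone means were unequal, the shares were 58.2% at day 12 and 68.4% at day 24. The day 24 shares include KO#10 replicate 1 and were not computed without it, and the day 12 shares do not involve it.

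The genes without overlap were not spread evenly along the chromosomes. A span of chromosome 20 from 31514410 to 32850405, in band 20q11.21, held 14 tested genes, and in 7 of them KO#2 lay above KO#10 in every library of the same day, against 1.63% of all genes tested. The 7 genes were *HM13*, *BCL2L1*, *TM9SF4*, *PLAGL2*, *POFUT1*, *KIF3B* and *NOL4L*, and in 0 of the 14 did KO#2 lie below. This band is known for gains in cultured human pluripotent stem cells, for which reason 13 of the 14 genes were on a list drawn up for this comparison. *NOL4L* was not on it and was added after its values were seen.

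*HM13* (ENSG00000101294, chromosome 20, 31514410 to 31577923), a signal peptide peptidase, was at 53 and 42 in KO#2 against 30 and 36 in KO#10 at day 12, and at 41 and 53 against 33 and 36 at day 24. *BCL2L1*, which encodes the survival factor BCL-XL, was at 27 and 31 against 21 and 25, and later at 43 and 34 against 27 and 27. *TM9SF4* was at 28 and 31 against 22 and 24, and later at 23 and 23 against 17 and 18. The differences were small but even, with 0.47 for *HM13*, 0.41 for *BCL2L1* and 0.36 for *TM9SF4* (0.52, 0.32 and 0.34 without KO#10 day 24 replicate 1), and they had an adjusted *p* of 0.583 like the other genes.

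Over the 14 genes the median paired difference was 0.30 and 0.15 in the day 12 pairs and 0.31 and 0.23 in the day 24 pairs, against 0 in each pair over all genes. Against the WT library of the same day and number, the median of the 14 was 0.01, −0.16, 0.02 and 0.07 in KO#2 and −0.24, −0.28, −0.27 and −0.30 in KO#10. These comparisons share the WT libraries. KO#10 day 24 replicate 1 was no exception here, and KO#10 was the clone below WT in all 4 pairs.

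*ASXL1*, a chromatin regulator between *KIF3B* and *NOL4L*, had values from 28 to 48 in the 8 libraries and differences from −0.10 to 0.09. Beyond *NOL4L*, the genes *COMMD7*, *DNMT3B* and *MAPRE1* overlapped between the clones. Every run of 14 neighbouring tested genes of a chromosome, chromosome 20 included, was counted in the same way. The 14 runs with at least 4 genes higher in KO#2 without overlap all lay on chromosome 20 and held genes of this span. No run elsewhere held more than 3, and none anywhere held more than 3 genes lower in KO#2. Neighbouring runs share genes, and these counts are a description. DNA copy number was not measured in these libraries. The paper reports a normal karyotype for WT and for both clones.

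**Figure D3:**
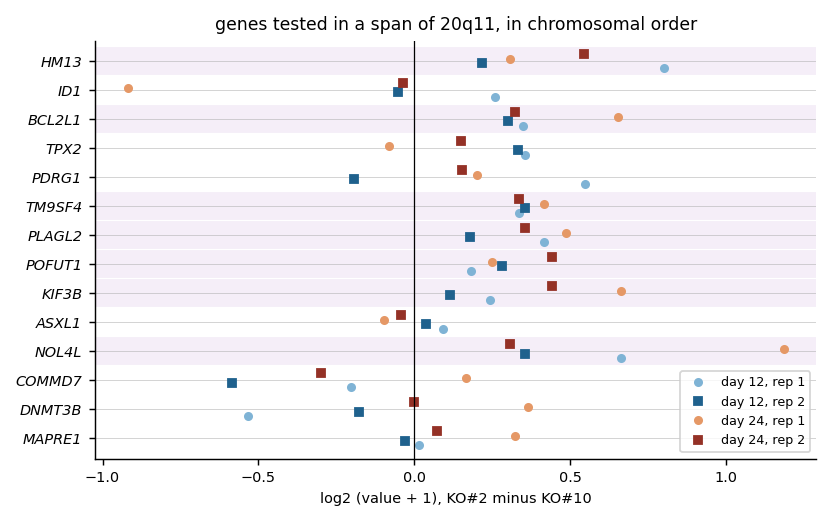
Paired differences (log2 of value + 1, KO#2 minus KO#10) of the 14 genes tested in a span of 20q11, in chromosomal order from top to bottom. Points are the 4 pairs of day and replicate (rep), and shaded rows are the 7 genes in which the clones did not overlap on either day. Most points of the shaded rows lie between 0.1 and 0.7, and those of *ASXL1* lie between −0.10 and 0.09.

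At day 24 a group of genes of the ventral forebrain stood higher in KO#2 in both pairs. In both pairs of that day, 20 genes (0.212%) were at least 2-fold higher in KO#2 and 8 (0.0848%) at least 2-fold lower. *DLX1* (ENSG00000144355), *GSX2* (ENSG00000180613) and *DLX6-AS1* (ENSG00000231764) were among the 20, and *DLX2* and *DLX5* from the telencephalon list were too low for a test. The genes *GSX2*, *DLX1*, *DLX2* and *DLX5* encode homeobox factors of the ganglionic eminences, where inhibitory neurons arise, and *DLX6-AS1* is a noncoding RNA of the same domain. These genes and *NRXN3* were singled out after their values were seen. *DLX6-AS1* lies antisense to its neighbouring homeobox gene, and whether the counting used the strand is not given in the sources used here.

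At day 24 *DLX6-AS1* was at 32 and 37 in KO#2 against 3 and 3 in KO#10. *DLX1* was at 14 and 14 against 1 and 1, and *DLX2* was at 9 and 9 against 1 and 1. *GSX2* was at 15 and 14 against 1 and 2, and *DLX5* at 3 and 4 against 0 and 0. All 5 genes were at 0 or 1 in the 4 clone libraries of day 12. Both KO#10 libraries were low, so that the difference did not rest on replicate 1.

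The WT libraries were split in these genes, with *DLX6-AS1* at 28 and 4, *DLX1* at 8 and 1, *DLX2* at 8 and 3 and *GSX2* at 17 and 2 in replicates 1 and 2. WT replicate 1 thus lay nearer to KO#2 and WT replicate 2 nearer to KO#10. The day 24 difference was 3.15 for *DLX6-AS1*, 2.91 for *DLX1* and 2.66 for *GSX2* (limma, adjusted *p* = 0.493 for each). When the spread was estimated without its trend with the mean, *DLX1* and *DLX6-AS1* were the 2 genes called, with an adjusted *p* of 0.0217. Among the clone libraries both genes, and *GSX2*, reached 10 only in KO#2 at day 24. They thus passed the filter through the group in which they were high. In *DLX1* the difference was 2.91 in both day 24 pairs and 0 in both day 12 pairs. That *p* rests on values at the floor of the scale, and no conclusion is drawn from it. Over the 16 settings in which *DLX1* was tested at day 24 its adjusted *p* ran from 0.0217 to 0.927, and the same range held for *DLX6-AS1*.

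*NRXN3* (ENSG00000021645), a neurexin of synapses, was at 18 and 19 in KO#2 at day 24 against 3 and 3 in KO#10, after 7 to 8 in all 4 clone libraries of day 12. Its difference was 2.29 (adjusted *p* = 0.322), which together with that of *MRPL3* was the smallest of that day. *NRXN3* too reached the filter value of 10 among the clone libraries only in KO#2 at day 24. *STMN2*, a gene of growing neurites, was at 318 and 356 against 66 and 153. In *STMN2* the WT libraries were at 83 and 28.

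Other genes of the 20 were those that had been higher at day 12. In 9 of the 20 every clone library of day 12 lay above every clone library of day 24. *REV3L*, the catalytic subunit of a DNA repair polymerase, was at 426 to 668 in the clones at day 12, and by day 24 it had 220 and 318 in KO#2 against 81 and 124 in KO#10, with 23 and 20 in WT. The noncoding RNA *LINC02503* was at 1203 to 1204 on the earlier day, and later at 1009 and 452 against 84 and 136, with 33 and 25 in WT. *FZD5*, a Wnt receptor of the eye field, was at 68 to 277 and later at 39 and 3 against 4 and 0. In 7 of the 20, *REV3L* and *LINC02503* among them, all 4 clone libraries of day 24 lay above both WT libraries, and KO#10 lay between WT and KO#2.

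The difference between the days was itself tested, as the clone difference at day 24 minus that at day 12. It was 2.20 for *NRXN3*, 1.34 for *REV3L* and 2.13 for *FZD5* in one direction, and −2.42 for *TNFRSF12A* and −1.59 for *ADCY2* in the other (limma, adjusted *p* = 0.878 for each). *ADCY2*, an adenylyl cyclase, was at 6 and 7 in KO#2 against 3 and 3 in KO#10 at day 12, and at 10 and 11 against 16 and 19 at day 24. The small nuclear RNA *SCARNA6* crossed over as well, from 40 and 59 against 28 and 38 to 36 and 46 against 67 and 65. In both genes the clones did not overlap on either day, with opposite signs.

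In the day 24 replicate 2 pair the dorsal telencephalon genes named here were level or lower in KO#2. *EMX2* was at 48 in KO#2 and 60 in KO#10, *EMX1* at 23 and 33, *NEUROG2* at 32 and 44, *TBR1* at 27 and 26 and *LHX2* at 72 and 77. Over the 10 tested genes of the telencephalon list, the median of the replicate 2 pair was −0.05 and 2 genes (*GSX2* and *DLX1*) were at least 2-fold higher in KO#2. The median of the replicate 1 pair was 2.27, with 7 of the 10 at least 2-fold higher.

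Of the 8 genes lower in KO#2 in both day 24 pairs, *TNFRSF12A*, the receptor of the cytokine TWEAK, was at 1 and 1 in KO#2 against 5 and 5 in KO#10, with 14 and 23 in WT. At day 12 it lay the other way, at 15 and 15 against 9 and 7. *LRIG3* was at 5 and 5 against 18 and 12. *CLDN4*, a tight junction claudin, was at 2 and 1 against 6 and 3. *THBS4*, *HAPLN1*, *C6orf141*, *FGGY* and *MRPL3* were the rest.

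At day 12 a few imprinted genes, of which only the copy from 1 parent is normally active, were among those furthest apart. The 21 tested genes of the imprinted list had medians of 0 and −0.07 in the pairs of that day. In both day 12 pairs 0 genes (0%) were at least 2-fold higher in KO#2, and 6 (0.0636%) were at least 2-fold lower. Of these, 3 were imprinted, namely *MEG3*, *H19* and *IGF2*, and the others were *AFP*, *BCL11A* and *U2AF1L5*, of which *AFP* and *BCL11A* were at 11 or less in the clones and *U2AF1L5* has a near-identical copy. *MEG3* (ENSG00000214548, chromosome 14, 100779410 to 100861031), a noncoding RNA active on the maternal copy, was at 12 and 4 in KO#2 at day 12 against 42 and 29 in KO#10. The WT libraries had 12 and 7.

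Neighbouring genes of the cluster differed in each day 12 pair as well. *MEG8*, another noncoding RNA of the maternal copy, was at 12 and 2 in KO#2 against 16 and 11 in KO#10, and the clones overlapped. *DLK1* (ENSG00000185559), a protein gene active on the paternal copy, was the reverse, at 3043 and 902 in KO#2 against 901 and 452 in KO#10, with 369 and 749 in WT, and the lower KO#2 value was level with the higher KO#10 value. By day 24 *MEG3* was at 1 and 1 against 1 and 5, and *DLK1* at 20 and 17 against 37 and 6, and the clones overlapped in both genes. The day 12 difference was −2.16 for *MEG3* and 1.38 for *DLK1* (limma, adjusted *p* = 1 for both).

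*H19*, a noncoding RNA of the maternal copy, was at 7 and 55 in KO#2 against 15 and 114 in KO#10 at day 12, and *IGF2*, the growth factor of the paternal copy beside it, at 3 and 17 against 8 and 38. Replicates of a clone thus differed more than the clones did, and the clones overlapped. Of the 21 imprinted genes tested, 0 were higher and 1 was lower in KO#2 in all 4 pairs, and the median difference was 0.06. *NNAT*, *PEG10*, *SNRPN* and *GNAS* were within 2-fold between the clones in each pair except *NNAT*, which was at 192 and 93 in the day 24 replicate 1 pair.

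**Figure D4:**
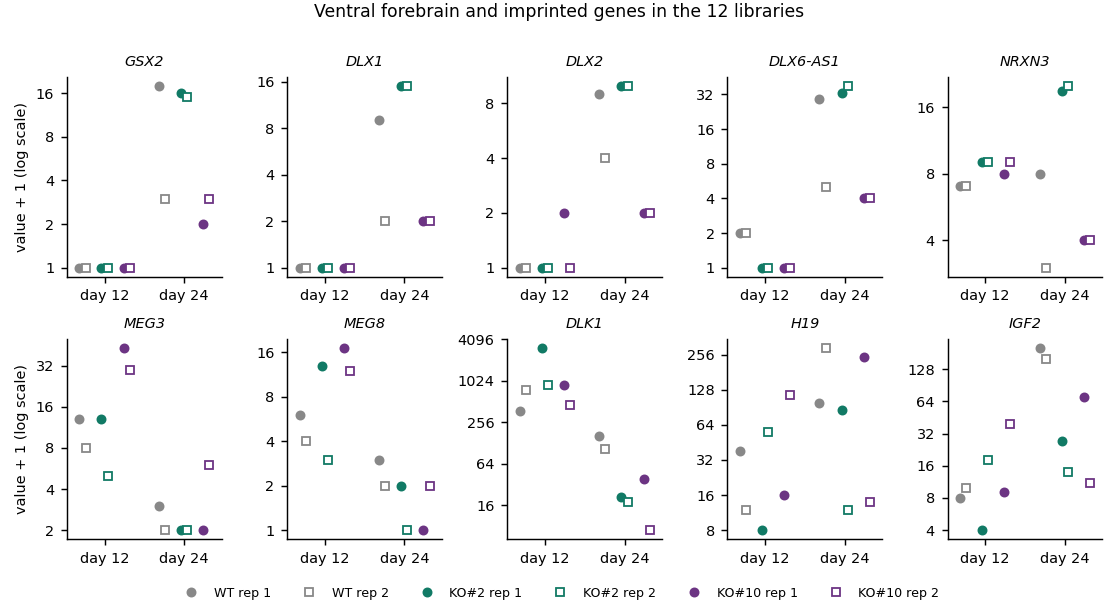
Value + 1 on a log scale in the 12 libraries for ventral forebrain genes (*GSX2*, *DLX1*, *DLX2*, *DLX6-AS1* and *NRXN3*) and imprinted genes (*MEG3*, *MEG8*, *DLK1*, *H19* and *IGF2*). Filled circles are replicate 1 and open squares replicate 2 of WT (grey), KO#2 (green) and KO#10 (purple). At day 24 both KO#2 libraries lie above both KO#10 libraries in the first 5 genes, and at day 12 *MEG3* was at 12 and 4 in KO#2 and 42 and 29 in KO#10.

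The genes carried by KO#10 day 24 replicate 1 are described next. Those with the largest gaps above the other 3 libraries included genes of connective tissue. *DCN*, the matrix proteoglycan decorin, was at 604 in this library, 16 in KO#10 replicate 2, and 21 and 10 in KO#2. *LUM*, the related lumican, was at 822, against 66 in KO#10 replicate 2 and 40 and 35 in KO#2. *POSTN*, periostin, was at 369 against 9, 15 and 7, and the collagen *COL1A2* at 370 against 29, 24 and 40. The WT libraries had 302 and 200 for *DCN*, 1009 and 903 for *LUM*, 243 and 146 for *POSTN* and 167 and 88 for *COL1A2*.

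*ALDH1A1*, an enzyme of retinoic acid synthesis, was at 98 in this library and 9 to 10 in the others. *RMST*, a noncoding RNA of the developing midbrain and other neural tissue, was at 5585, the highest value of the scale, against 1204 in each of the other 3. Its fold is coarse, since the steps are wide there. *PLS3*, *S100A11*, *GPC3* and *IGFBP3* completed the 10 with the largest gaps, which ran from 2.14 to 4.78 log2 units. *GPC3* was at 198 here and 24 to 34 in the others.

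Those with the largest gaps below the other 3 included a gene of radial glia and genes of neurons. *PTPRZ1*, a receptor phosphatase of radial glia, was at 28, against 370 in KO#10 replicate 2 and 395 and 370 in KO#2. *MAP2*, the dendritic protein, was at 95 against 750, 668 and 1009, and *GPM6A* at 80 against 553, 822 and 668. *TBR1*, a factor of cortical neurons, was at 4 against 26, 24 and 27. *MPPED1*, *NSG2*, *KLHDC8A* and *PWRN1* were also among the 10 with the largest gaps, which ran from 2.32 to 3.68. In *PTPRZ1* the WT libraries were at 172 and 48, and in *MAP2* at 64 and 22.

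Several marker lists separated this library in the same way, and others did not. The 15 neural progenitor genes summed to 1670 here, within the 1478 to 1825 of the other clone libraries of that day. The hypothalamus and eye genes summed to 130, within 93 to 183, and the thalamus genes to 54, within 43 to 75. The summed values of the 11 listed mesenchyme genes in the files were 2904 in KO#10 day 24 replicate 1, 142 to 178 in the other 3 clone libraries of that day, and 2487 and 2099 in WT. The 10 endoderm genes summed to 1082 here, to 67, 1 and 0 in the others (KO#2 replicates 1 and 2, KO#10 replicate 2), and to 6547 and 6289 in WT. *AFP*, the fetal liver protein, was at 902 here, 42 in KO#2 replicate 1, and 1 and 0 in replicate 2 of KO#2 and KO#10, with 5585 in both WT libraries. The 9 genes of choroid plexus and cortical hem summed to 442 here, 75 to 196 in the others, and 444 and 505 in WT.

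The 15 neuron genes summed to 529 here, 1547 to 2247 in the other 3, and 394 and 221 in WT, and the 15 telencephalon genes to 56, 232 to 343, and 92 and 36. Epithelial and junction genes summed to 329 here, 106 to 126 in the others, and 803 and 1027 in WT. Of the genes tested, this library stood above the others in 6 of 8 mesenchyme genes and 6 of 11 epithelial genes, against 1.36% of all genes, and below them in 7 of 14 neuron genes and 4 of 10 telencephalon genes, against 1.73%. In RNA of whole COs, fewer cells of a type and less RNA per cell cannot be told apart. The part of these cell types in the difference between the clones was not tested.

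**Figure D5:**
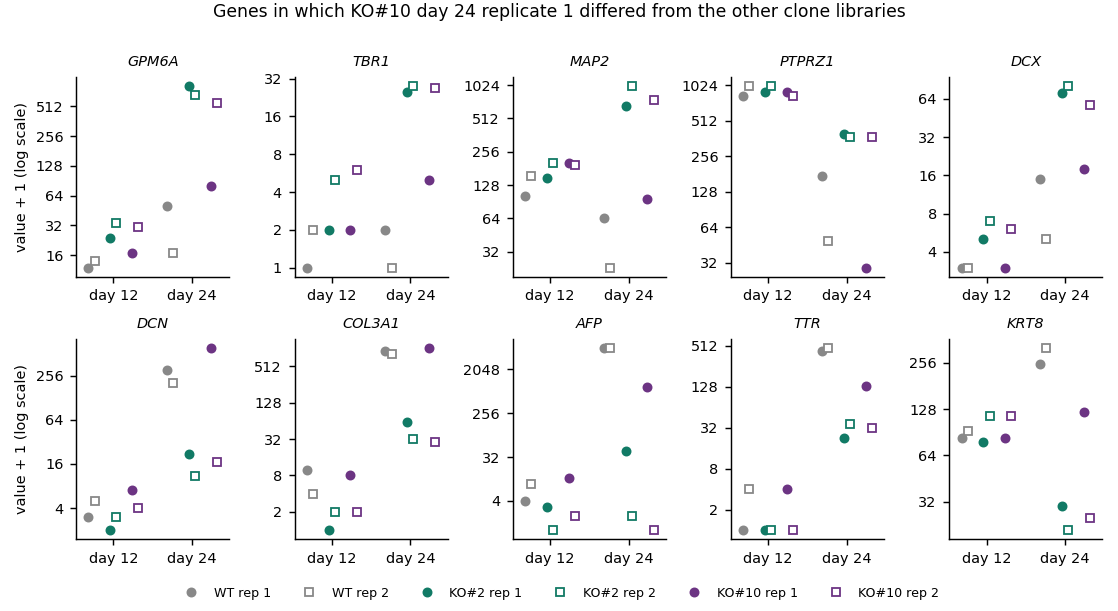
Value + 1 on a log scale in the 12 libraries for 5 forebrain or neuronal genes (*GPM6A*, *TBR1*, *MAP2*, *PTPRZ1* and *DCX*) and 5 genes of other tissues (*DCN*, *COL3A1*, *AFP*, *TTR* and *KRT8*). Filled circles are replicate 1 and open squares replicate 2 of WT (grey), KO#2 (green) and KO#10 (purple). At day 24 the filled purple circle, KO#10 replicate 1, lies away from the other 3 clone libraries, with *DCN* at 604 against 10 to 21 and *PTPRZ1* at 28 against 370 to 395.

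WT was not used to choose the genes in which this library stood apart. Of the 128 genes in which it stood above, both WT libraries lay above all 3 other clone libraries in 109 (85.2%), against 25.7% of all genes tested. Of the 163 in which it stood below, both WT libraries lay below the other 3 in 150 (92.0%), against 30.5%. In the chosen genes the other 3 lay within 1 log2 unit of each other, which was not required of all genes. The shares are therefore not matched. The library did not always lie between WT and the other clone libraries, since in 56 of the 128 it lay above both WT libraries and in 43 of the 163 below both. *TTR*, a product of choroid plexus and liver, was at 130, between the 22 to 35 of the other clone libraries and the 424 and 471 of WT. *PTPRZ1* at 28 was below the lower WT library. *JUN* in this library was at 29, nearer to the other clone libraries (32 to 39) than to WT (13 and 15).

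Outside that library the same genes had medians near 0. For the 128 genes the median difference was −0.14 and 0 in the day 12 pairs and 0 in the day 24 replicate 2 pair, against −1.52 in the day 24 replicate 1 pair. For the 163 genes the medians were 0.06, 0.09 and 0.14, against 1.52. At least 2-fold differences in the same direction were found at day 12 in 11 of the 128 and 12 of the 163 genes in replicate 1, more often than in all genes tested (0.901% and 0.721%), and in 0 and 1 in replicate 2 (0.329% and 0.35% of all genes). The day 24 replicate 2 values are bound by the way the genes were chosen, but those of day 12 are not.

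KO#2 day 24 replicate 1 also had genes of its own. *H2BC15*, a histone gene, was at 112 in it and 750 to 822 in the other 3 libraries, *ATP5PD*, a subunit of ATP synthase, at 903 against 5585 in each, and *RPL41* at 1202 against 5585. The folds of *ATP5PD* and *RPL41* are coarse, since the steps are wide at the top of the scale. In *ATP5PD* the day 12 replicate 1 libraries were at 902 and 604 and those of replicate 2 at 5585, so that the gene varied with the replicate number on that day. *ALDH1A3*, which makes retinoic acid in the eye field and nasal tissue, was at 46 in this library against 3 to 7. These genes, named after their values were seen, add to the count of the day 24 replicate 1 pair without any part of KO#10 replicate 1.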

How the data were processed

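RNA of 3 to 4 pooled COs per library was depleted of ribosomal RNA and sequenced by the authors as strand-specific libraries. The deposited values are whole-number scores per gene that the authors had already normalized, and they carry no read counts. Their notes to GEO name bcl2fastq, Bowtie2, RSEM and the mouse build mm10, without versions, although the deposited genes carry human Ensembl identifiers and coordinates compatible with GRCh38. Coordinates are those of the files.

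Genes that reached 10 in 2 or more of the 8 clone libraries were tested on log2 (value + 1) with limma 3.58.1 (R 4.3.3), using trended empirical Bayes, the pair of day and replicate number as a block, and Benjamini-Hochberg adjustment over all genes tested. Calls needed an adjusted *p* below 0.05 together with a 2-fold difference. A count model had been planned in case of counts and was not used. The fits were tested on simulated data. Libraries of the same number deviated together from their clone's mean of the day (*r* across genes of 0.586 at day 12 and 0.32 at day 24).

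*JUN*, the 12 largest differences without overlap in each direction (mean of at least 10 in the higher clone), the 10 largest gaps of KO#10 day 24 replicate 1 in each direction, the 5 smallest *p* in each direction of the difference between days, and members of marker lists were named. Some genes that met these rules are not reported here. The comparison, its members and all lists were chosen with earlier results of these data known. Python 3.11.15, pandas 2.3.3, numpy 2.4.6 and matplotlib 3.10.9 served for counts and plots.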

Additional observations from a re-analysis of the deposited data

How the results depend on the processing

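The number of genes called between the clones over both days was 0 under every alternative run, with a smallest adjusted *p* from 0.525 to 0.937 against 0.583. Called at an unadjusted *p* under 0.05 instead, 7 genes were higher and 7 lower in KO#2. At day 24 the fit without a trend of the spread called 2 genes, *DLX1* and *DLX6-AS1*, which passed the filter only through the KO#2 libraries of that day. Without the replicate block 0 genes were called, the smallest adjusted *p* was 0.937 and 365 genes had an unadjusted *p* under 0.05, against 767 with the pairing, and the block changed no call. When genes had to reach 20 in 4 libraries, 97 genes without overlap were higher and 102 lower in KO#2, since fewer genes were tested. Leaving out 1 library relaxes that rule and gave 257 to 530 higher and 272 to 543 lower, the lowest counts without KO#10 day 24 replicate 1. Of genes without overlap and at least 2-fold apart, 25 higher and 19 lower were left at 1.5-fold, and 1 and 0 with a pseudocount of 10. KO#10 day 24 replicate 1 stood above the others in 12 genes and below in 26 with a gap of at least 2, in 58 and 46 with a pseudocount of 10, and in 153 to 234 and 177 to 271 with 1 other library left out, the most without KO#2 day 24 replicate 1. The named genes kept their direction and their side of the threshold in 387 values of the clone difference and 156 of the difference between days. For the clone difference this was largely fixed in advance. No named gene came near the threshold, with an adjusted *p* (limma) from 0.525 to 0.937, and most were chosen for 1 direction on both days. The scores give no depth, and each line was 1 clone.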

Other observations

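Cell cycle genes lay slightly lower in KO#2. Of the 23 tested, 6 were lower in all 4 pairs and 0 higher, against 6.51% of all genes, and the median difference was −0.10. *BUB1B*, a mitotic checkpoint kinase, was at 26 and 34 in KO#2 against 43 and 47 in KO#10 at day 12, and at 18 and 27 against 25 and 29 at day 24. *MCM6*, a subunit of the replicative helicase, was at 40 and 46 against 42 and 53, and later at 36 and 52 against 60 and 63. *MCM2*, of the same complex, had a mean difference of −0.06.

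Of the 15 genes of neural progenitors, 3 were higher in KO#2 in all 4 pairs and 0 lower, against 6.43% and 6.51% of all genes, with a median of 0.15. These were *CDH2*, *SOX3* and *NOTCH1*. *CDH2*, the neural cadherin, was at 243 and 472 in KO#2 against 219 and 426 in KO#10 at day 12, and at 290 and 472 against 266 and 369 at day 24.

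Of the 141 zinc finger genes of chromosome 19 that were tested, 12 were higher and 2 lower in all 4 pairs, the former close to the 6.43% of all genes. The median was 0.09 over all pairs, with 0.26 in the day 24 replicate 1 pair and 0, 0.03 and 0 in the others. *ZNF566* had the largest mean of these, 0.56, with 13 and 9 in KO#2 against 10 and 7 in KO#10 at day 12 and 16 and 13 against 8 and 8 at day 24. Of the 10 clustered protocadherins tested, 3 were higher in all pairs (6.43% of all genes), among them *PCDHA4*, which was at 12 and 11 against 4 and 4 at day 24. Ribosomal protein genes had a median of 0 over 83 genes, with 1 higher and 4 lower, against 6.43% and 6.51% of all genes. Many members of this family share reads with pseudogenes.

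Of the 18 genes of cholesterol synthesis, 3 were higher in all pairs, *SREBF2* and *IDI1* among them, and 0 lower, against the same shares of all genes, with a median of 0.09. The pair medians were 0.20 and 0.27 at day 12, and −0.29 and 0.08 at day 24 (replicates 1 and 2). The medians were −0.15 for 19 hypoxia and glycolysis genes, −0.10 for 14 p53 targets, −0.16 for 9 genes of the unfolded protein response, 0.14 for 9 immediate early genes, 0.03 for 7 genes of DNA methylation and 0.09 for 9 pluripotency genes. In the day 24 replicate 1 pair the hypoxia list had a median of −0.52, against 0.05, 0.10 and 0 in the other pairs. The p53 targets had −0.36 there, against −0.01, 0.09 and 0. The unfolded protein genes had −0.42, against 0, 0.08 and 0.02. Few genes of other brain regions were tested, with medians of −0.14 for 4 thalamic, 0.15 for 6 hypothalamic and eye and −0.37 for 2 midbrain and hindbrain genes, and 0.48 for 1 neural crest gene. In the day 24 replicate 1 pair the midbrain and hindbrain genes had −1.84, against −0.26, 0.29 and 0.34 in the other pairs. The hypothalamic and eye genes had 0.81 in that pair, against −0.07, 0.06 and −0.29.

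Whole chromosomes did not stand apart, since the chromosome medians of the clone difference ran from −0.03 to 0.025. In windows of 30 neighbouring genes, 60 of 1760 had a median of 1 sign in all 4 pairs. The window whose smallest median was furthest from 0 was on chromosome X, from 102599512 to 111412429, with medians of 0.119, 0.116, 0.392 and 0.173 and 7 genes higher and 1 lower in all pairs. A window of chromosome 7, from 23298739 to 35697459, had 0.087, 0.102, 0.271 and 0.082. Windows overlap, and in both the day 24 replicate 1 pair had the largest median.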
